A study of Rattus norvegicus with 20 samples.

Results

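Gene expression in foetal rat testes was compared between TOTM (tris(2-ethylhexyl) trimellitate), a plasticiser, and MEHP (mono(2-ethylhexyl) phthalate), the monoester that the body forms from the phthalate plasticiser DEHP. The comparison used the 4 arrays labelled TOTM and the 4 labelled MEHP, 8 of the 20 arrays in the series, and every probe that was not a control spot. TOTM is a triester of trimellitic acid, and MEHP is a monoester of phthalic acid with a free acid group. Pregnant Han Wistar rats were gavaged daily with TOTM at 500 mg/kg, MEHP at 500 mg/kg or, as controls, the corn oil vehicle alone. Treatment covered gestation days 12 to 19, at the same mass of compound and therefore at unequal molar doses. Each array held RNA pooled from the testes of at least 3 male pups of 1 litter, with 4 arrays per group. The RNA was from whole testes, so for every gene below fewer cells of a type and less RNA per cell cannot be told apart. The pair was compared at 1 dose and 1 stage, and the interval beside a difference is its 95% confidence interval.

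Foetal Leydig cells, which lie between the testis cords, make androgen from cholesterol. Cholesterol is taken up or synthesised, carried into mitochondria, cleaved to pregnenolone and converted by further enzymes to testosterone. Phthalates that act on the rat foetal testis are known for lowering these genes and testosterone during the window in which the male tract forms.

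The MEHP arrays were spread more widely than the TOTM arrays. The spread of the difference between 2 arrays was set against the noise between repeated spots of 1 array, so that 1 stands for that noise. Pairs of TOTM arrays lay at 1.45 to 2.42 on this scale, and pairs of MEHP arrays at 0.784 to 4.73. The lowest MEHP value was that of arrays 1 and 2, which differed by less than the spot noise and were counted as 1 sample, so MEHP has n = 3 and TOTM n = 4. MEHP 3 was closest to Control 2, at 1.29, and MEHP 4 was closest to an array of the DEHP group, at 1.37. TOTM 3, too, was closest to an array of another group, a DEHP array at 1.69. No pair of TOTM arrays was as close as those of MEHP 3 and MEHP 4. Markers of the foetal testis were bright on all 8 arrays, with log2 levels of 5.28 to 6.22 for Amh of Sertoli cells and 3.49 to 6.0 for Insl3 of Leydig cells. The labels were kept, and results are given also without MEHP 3 and 4 and without MEHP 1 and 2. The first of these fits leaves MEHP as 1 sample, which is assumed to vary like the other groups. With all arrays this did not hold for some genes: the standard deviation for Star was 1.65 with MEHP, against 0.23 with TOTM. Calls and p-values of that fit are therefore not support. Signal well above background was found at 63.9% to 75.6% of spots on TOTM arrays, against 66.0% to 73.9% on MEHP arrays and 65.7% to 79.8% on control arrays. The arrays of a group shared 1 slide that held no other group, so the slide's part in a difference and the compound's cannot be told apart.

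**Figure D1:**
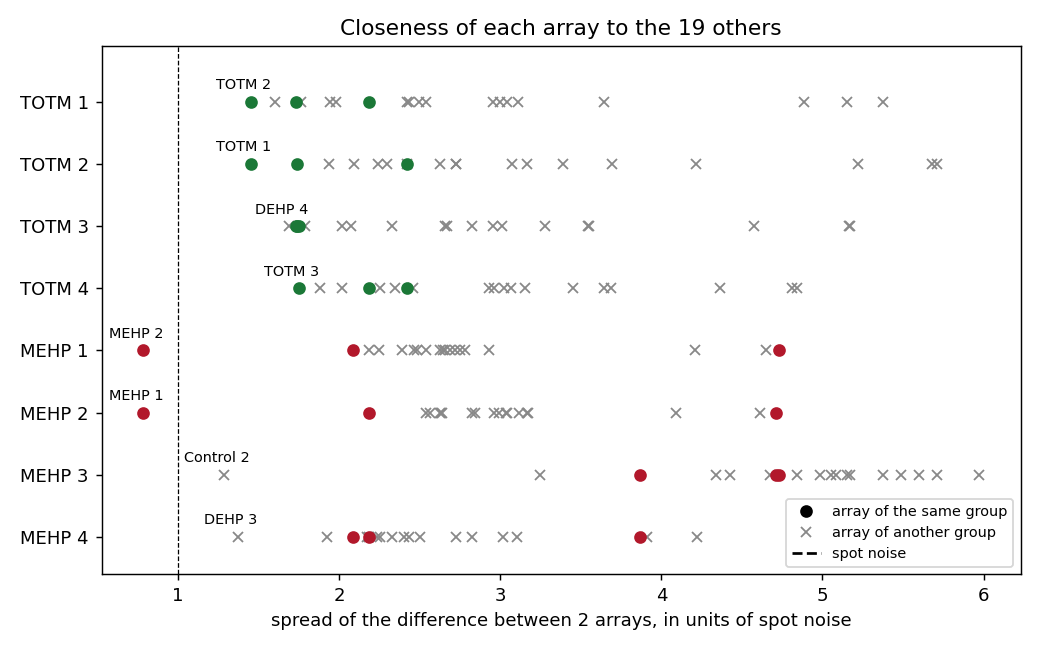
Closeness of each TOTM and MEHP array (rows) to the other 19 arrays. The x axis is the spread of the difference between 2 arrays in units of spot noise, filled circles are arrays of the same group, crosses are arrays of other groups, and the nearest array is named. MEHP 1 and 2 lie below the noise at 0.784, and MEHP 3 lies nearest to Control 2 at 1.29.

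Over all genes, most differences that passed the test were lower levels with TOTM than with MEHP. limma called 380 of 24215 genes (1.57%) at an adjusted p under 0.05, of which 22 were higher with TOTM (0.0909% of genes tested) and 358 were lower (1.48%). The median log2 difference, TOTM minus MEHP, was 0.06 over all genes tested, 0.68 over the genes called higher and -0.85 over those called lower. At least 2-fold differences numbered 126, 3 of them higher and 123 lower, and 48 with background correction and quantile normalization or 39 with median scaling. The scaling moved this split: 5.79% of the called genes were higher here, 16.5% with quantile normalization (92 higher, 465 lower) and 21.9% with background correction added to it (136 higher, 484 lower). It was 17.0% with the EHO arrays out of the fit and 57.4% with weighted arrays, where 6283 genes were called. With each array centred on its median, 1 gene was called higher and 40 lower.

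The calls depended on which MEHP arrays were used. Without MEHP 3 and 4, 120 genes were called, 46 higher and 74 lower, and 66 of them were among the 380. Without MEHP 1 and 2, 228 were called, 3 higher and 225 lower, and 209 were among the 380. All 59 genes called in the same direction in these fits and in the fit of all arrays were lower with TOTM. Counted array by array, 387, 570, 1450 and 285 genes lay at least 2-fold from the TOTM mean on MEHP 1 to 4. Single TOTM arrays lay that far from the mean of the other TOTM arrays at 188 to 291 genes, and single control arrays from the TOTM mean at 126 to 1188 genes, the highest of these being Control 2.

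**Figure D2:**
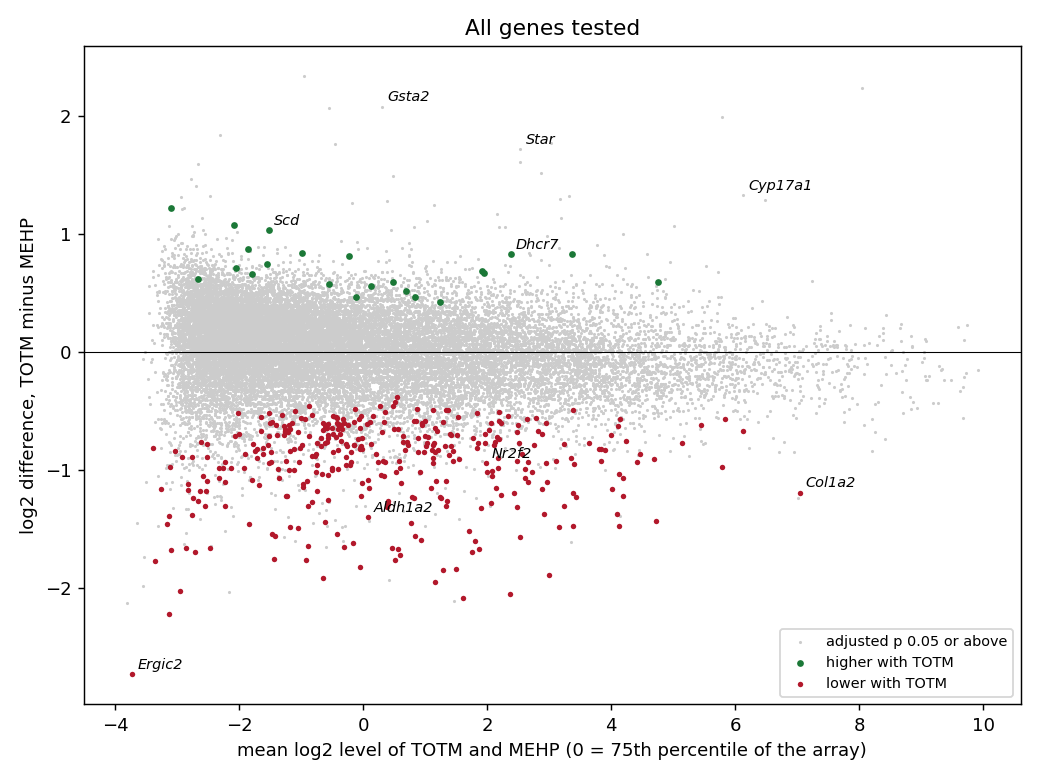
All 24215 genes tested, with the mean log2 level of TOTM and MEHP on the x axis and the log2 difference, TOTM minus MEHP, on the y axis. Green points are the 22 genes called higher with TOTM, red points the 358 called lower, and grey points did not pass. Star, Cyp17a1 and Gsta2 have large differences among the grey points.

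Genes of steroid synthesis lay higher with TOTM than with MEHP on average, but none of the 18 measured passed the test across all arrays. Of the 18, 15 lay above 0, against 57.2% of all genes, with a median of 0.63 against 0.06 over all genes. The lowest, Hsd3b2 at -0.73, was read by a probe placed on mitochondrial DNA, so its name is doubtful. Another Hsd3b2 probe lay at 0.57 ± 0.34. The difference was largest for MEHP 1 and 2 and smaller for MEHP 4. The list's median, TOTM mean minus a single array, was 0.94 and 0.89 for MEHP 1 and 2, 0.34 for MEHP 4 and -0.04 for MEHP 3. Single TOTM arrays ran from -0.17 to 0.17, so only MEHP 3 lay within their spread. The summed level was 302 to 365 with TOTM, against 139, 146, 386 and 232 on MEHP 1 to 4. Without MEHP 3 and 4 the median was 0.92, and without MEHP 1 and 2 the median was 0.19 and none was called.

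Star carries cholesterol into mitochondria, the step that limits steroid synthesis (probe on rn4 chr16:70640879-70640938). Its log2 levels, scaled to each array's 75th percentile, were 3.55, 3.31, 3.1 and 3.61 on the TOTM arrays, against -0.06, 0.02, 3.26 and 1.77 on the MEHP arrays and 3.36, 3.34, 3.78 and 3.19 in control. MEHP 3 lay within the TOTM range, while MEHP 1 and 2 lay lowest and MEHP 4 between them. The difference of 1.72 ± 0.50 (SE; interval 0.67 to 2.78) did not pass (limma adjusted p = 0.114). It was 3.42 without MEHP 3 and 4 and 0.88 without MEHP 1 and 2. Without MEHP 3 alone it was 2.52 (limma adjusted p = 0.00444).

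Cyp11a1 cleaves the side chain of cholesterol, and Cyp17a1 leads from progestins to androgens. Cyp11a1 stood at 3.78, 3.53, 3.93 and 4.08 with TOTM, against 1.13, 1.23, 3.46 and 2.95 with MEHP and 3.57, 3.42, 4.09 and 3.58 in control. Cyp17a1 stood at 6.77, 6.71, 6.79 and 6.89 with TOTM, against 4.16, 4.21, 6.50 and 5.68 with MEHP, and its spot was marked as an outlier on all control arrays. For both genes every TOTM array lay above every MEHP array, as it did for 6.84% of all genes. The differences were 1.30 ± 0.37 for Cyp11a1 (limma adjusted p = 0.106) and 1.33 ± 0.42 for Cyp17a1 (limma adjusted p = 0.174). Without MEHP 3 and 4 they were 2.65 and 2.61.

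Scarb1, the lipoprotein receptor that brings cholesterol into the cell, was read by a pair of probes that disagreed. On the brighter probe its levels were 4.85, 4.72, 5.02 and 5.07 with TOTM, against 2.58, 2.73, 5.93 and 4.23 with MEHP and 5.25, 5.80, 5.20 and 5.13 in control, a difference of 0.64 ± 0.48 that did not pass (limma adjusted p = 0.590). On the other probe they were 3.46, 3.07, 3.45 and 3.39 with TOTM, against 1.26, 1.18, 2.28 and 2.18 with MEHP and 3.17, 2.53, 3.69 and 2.97 in control. There all TOTM arrays lay above all MEHP arrays, and the difference of 1.45 ± 0.26 passed in the fit of all probes (limma adjusted p = 0.00889). MEHP 3 was the highest array of the 12 on the brighter probe and lay below every TOTM and control array on the other.

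Further steps of the pathway showed the same order of MEHP arrays. Fdx1, which hands electrons to Cyp11a1, had 5.49, 5.08, 5.32 and 5.46 with TOTM, against 3.30, 3.43, 5.86 and 4.50 with MEHP (difference 0.76 ± 0.41). Hsd3b1, which oxidises pregnenolone, had 5.15, 4.91, 5.30 and 5.36 with TOTM, against 3.22, 3.22, 5.51 and 4.94 with MEHP (difference 0.62 ± 0.36). For both, MEHP 3 was above every TOTM array. Lhcgr, the receptor for luteinising hormone, had -1.92, -2.06, -2.34 and -2.06 with TOTM, against -3.88, -3.59, -1.75 and -2.86 with MEHP, and was well above background on 2 of the 4 MEHP arrays. Cyp11b1, the 11-beta-hydroxylase best known from the adrenal cortex, differed by 2.07 ± 0.61 (limma adjusted p = 0.124), with 0.84, 0.14, 0.02 and 0.93 with TOTM, against -3.56, -3.01, 0.49 and -1.97 with MEHP. Nr5a1, the nuclear receptor that drives these genes, did not follow that order: its levels were -0.70, -1.14, -1.07 and -0.98 with TOTM, against -1.59, -1.64, -2.34 and -1.48 with MEHP. Its difference of 0.84 ± 0.26 did not pass (limma adjusted p = 0.141), and its control levels of -1.41, -2.21, -0.85 and -1.37 overlapped both groups. Hsd17b3, known in the testis for the last step to testosterone, had 2.96, 2.80, 3.18 and 3.03 with TOTM, against 2.79, 2.86, 3.06 and 2.91 with MEHP. That difference was 0.06 ± 0.15, with an interval of -0.26 to 0.38.

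**Figure D3:**
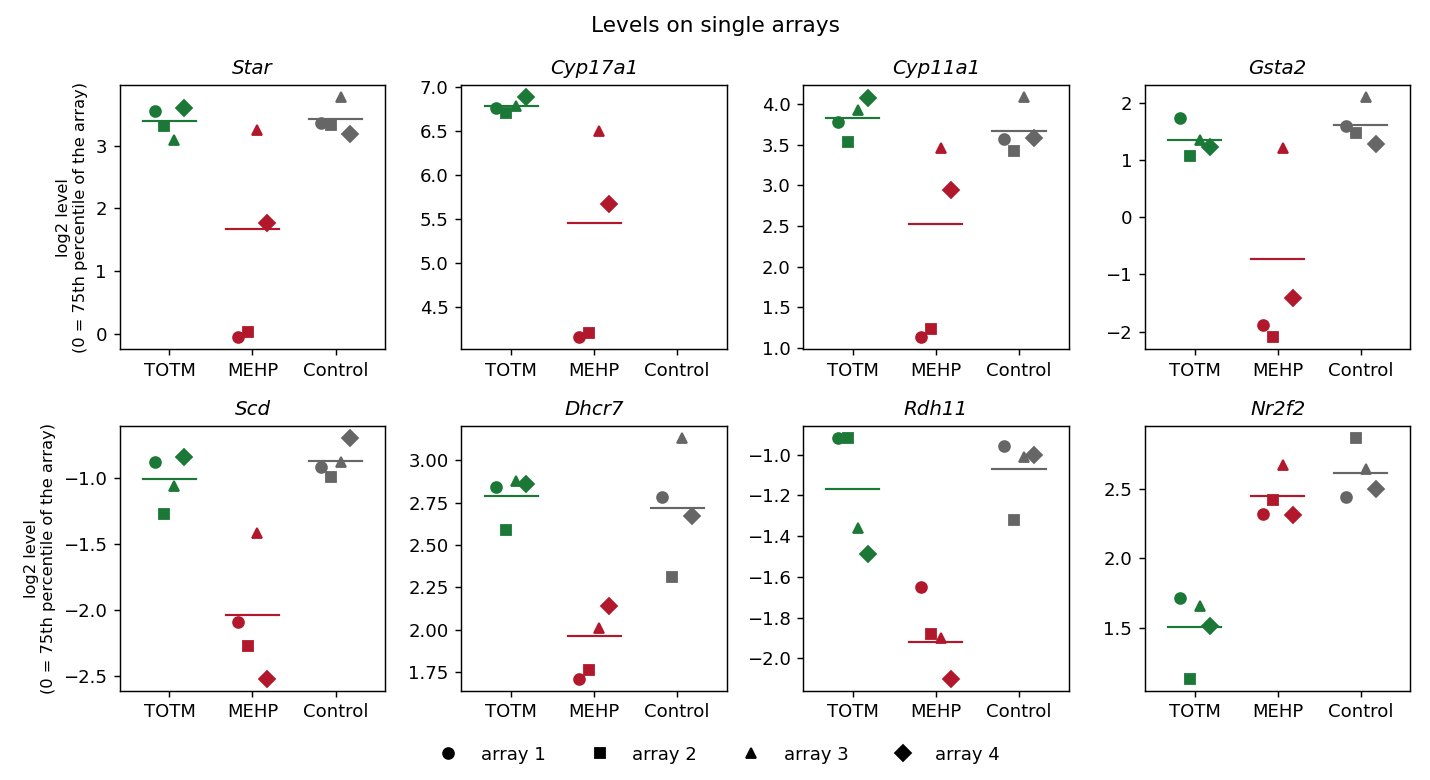
Log2 levels of 8 genes on the 4 TOTM, 4 MEHP and 4 control arrays, relative to the 75th percentile of each array. Symbols give the array number and bars the group means, with MEHP 1 and 2 counted as 1 sample. For Star, Cyp17a1, Cyp11a1 and Gsta2 the MEHP arrays are spread out with MEHP 3 on top, while for Scd, Dhcr7, Rdh11 and Nr2f2 the TOTM and MEHP arrays do not overlap. Cyp17a1 has no control values.

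Among other markers of foetal Leydig cells, none of 10 measured passed, 8 lay above 0, and the list's median was 0.19. The median of the TOTM mean minus a single array was 0.19, 0.12, -0.14 and 0.14 for MEHP 1 to 4, within or close to the -0.13 to 0.19 of single TOTM arrays. The summed level differed more: it was 113 to 133 with TOTM, against 55.4, 57.4, 148 and 113 on MEHP 1 to 4. Insl3, the Leydig hormone of testis descent, stood at 5.64, 5.53, 5.61 and 5.53 with TOTM, against 3.49, 3.57, 6.0 and 5.60 with MEHP. MEHP 3 was thus above and MEHP 4 within the TOTM range. The difference of 0.53 ± 0.40 became 2.05 without MEHP 3 and 4 and -0.23 without MEHP 1 and 2. Inha, the inhibin alpha subunit, which Sertoli cells also make, had 5.62, 5.51, 5.68 and 5.86 with TOTM, against 4.45, 4.47, 5.76 and 5.22 with MEHP (difference 0.52 ± 0.22). Insl3 and Inha spread over the MEHP arrays like the steroidogenic genes. Nr0b1 (-1.35, -1.34, 0.02 and -0.74) and Pdgfra (2.92, 2.97, 3.93 and 3.46) had the same order on MEHP 1 to 4, although Pdgfra differed by -0.40 ± 0.24. MEHP 3 was also the highest MEHP array for Vcam1 and Cxcr4, and MEHP 4 was for Crhr1. For Dlk1, a ligand-like membrane protein, Gata4, a gonadal transcription factor, and Thbs2, a thrombospondin, MEHP 3 was the lowest MEHP array. The adrenal list of 4 measured genes, with a median of 0.57 and none called, included Cyp11b1 and Mrap, the partner of the corticotropin receptor (difference 0.81 ± 0.41). Mrap had 2.02, 1.63, 2.09 and 2.13 with TOTM, against -0.12, 0.00, 2.50 and 1.02 with MEHP.

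Genes of cholesterol synthesis lay higher with TOTM than with MEHP, least so against MEHP 3. All 25 genes measured, of 27 listed, lay above 0, with a median of 0.43 against 0.06 over all genes. The 2 that passed, Dhcr7 and Fdft1, were called higher, where 0.0909% of all genes were. The list's median, TOTM mean minus a single array, was 0.67, 0.62, 0.15 and 0.57 for MEHP 1 to 4, and -0.28 to -0.01 for the control arrays. Single TOTM arrays ran from -0.13 to 0.20, so the value for MEHP 3 lay within their spread. In 8 of the 25, every TOTM array lay above every MEHP array, as in 6.84% of all genes, and in none below. The median was 0.66 without MEHP 3 and 4, and 0.35 without MEHP 1 and 2, where none was called. The summed level was 251 to 313 with TOTM, against 160, 167, 308 and 177 on MEHP 1 to 4.

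Dhcr7 makes cholesterol from its last precursor, and Fdft1, squalene synthase, commits the pathway to sterols. Dhcr7 had 2.84, 2.59, 2.88 and 2.86 with TOTM, against 1.71, 1.76, 2.01 and 2.14 with MEHP and 2.78, 2.31, 3.13 and 2.67 in control. The 4 MEHP arrays lay close together and below all others, and Dhcr7 was 0.83 ± 0.17 higher with TOTM (interval 0.48 to 1.19, limma adjusted p = 0.0153). Fdft1 had 0.45, 0.37, 0.40 and 0.42 with TOTM, against -0.37, -0.30, 0.02 and -0.15 with MEHP and 0.30, 0.25, 0.38 and 0.17 in control, and was 0.56 ± 0.12 higher with TOTM (limma adjusted p = 0.0182). The Dhcr7 call was lost with an adjusted p of 0.0954 without MEHP 3 and 4 and of 0.103 without MEHP 1 and 2, by limma, although the differences of 1.06 and 0.72 stayed on the same side.

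The pathway's other genes split MEHP 3 from the rest. Tm7sf2, a sterol reductase, had 2.84, 2.44, 2.71 and 2.90 with TOTM, against 0.96, 1.03, 2.72 and 1.28 with MEHP, a difference of 1.06 ± 0.33 that did not pass (limma adjusted p = 0.149). Ebp, a sterol isomerase, had 3.53, 3.32, 3.63 and 3.59 with TOTM, against 2.40, 2.52, 3.52 and 2.76 with MEHP (0.60 ± 0.22). Msmo1, a sterol oxidase, had 6.27, 5.76, 6.01 and 6.20 with TOTM, against 4.87, 4.93, 6.17 and 5.06 with MEHP (0.68 ± 0.27). Cyp51, which demethylates lanosterol, had 2.08, 1.58, 1.66 and 1.94 with TOTM, against 1.08, 1.08, 2.18 and 0.89 with MEHP (0.43 ± 0.26). In these genes MEHP 3 lay within or above the TOTM range and the other MEHP arrays below it.

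Idi1, the isomerase that makes the reactive isoprene unit, was again read differently by its probes. The brighter had 3.54, 3.15, 3.29 and 3.47 with TOTM, against 2.69, 2.72, 3.36 and 2.71 with MEHP (0.44 ± 0.19, limma adjusted p = 0.327). The other had 1.67, 1.30, 1.47 and 1.62 with TOTM, against 0.39, 0.41, 0.38 and 0.37 with MEHP and 1.45, 0.67, 2.00 and 1.57 in control. There the 4 MEHP arrays were nearly equal and below every TOTM array, and the difference of 1.13 ± 0.22 passed in the fit of all probes (limma adjusted p = 0.0112).

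**Figure D4:**
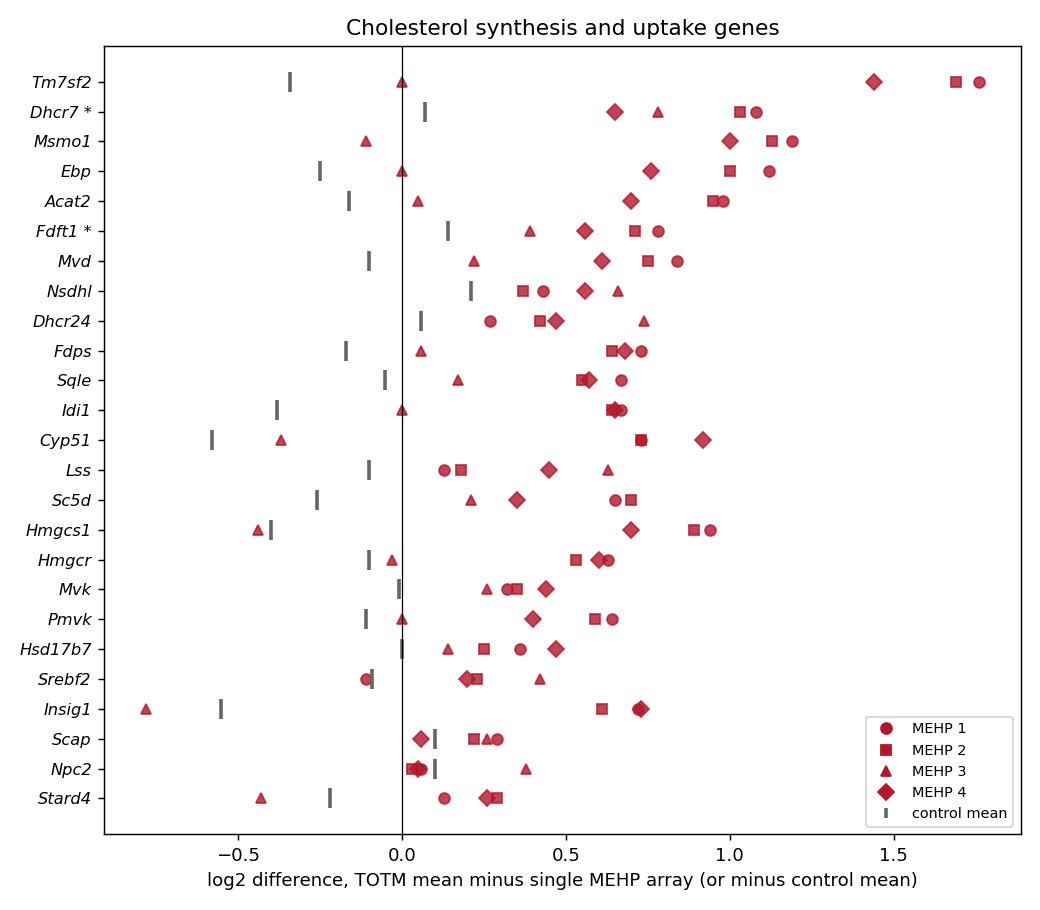
Log2 difference of the TOTM mean minus each single MEHP array (red symbols) and minus the control mean (grey ticks) for the 25 cholesterol genes, in order of the group difference. Asterisks mark Dhcr7 and Fdft1, which passed the test. MEHP 3 lies near or below 0 for many genes, while the other MEHP arrays lie mostly above it.

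The promoters of a sterol gene that passed, of the sterol gene with probes that disagreed and of the lipid gene with the largest called difference are shown for what their sequences share. They are the 250 bases before the start in RefSeq's GRCr8 table, for Dhcr7 at chr1:208444184-208444433, plus strand, for Idi1 at chr17:66547525-66547774, minus strand, and for Scd at chr1:253231732-253231981, minus strand. Capitals mark matches, on either strand, to the GC box GGGCGG, the NF-Y box CCAAT, the half-site AGGTCA of nuclear receptors and the sterol element core TCACNCCAC.
Dhcr7: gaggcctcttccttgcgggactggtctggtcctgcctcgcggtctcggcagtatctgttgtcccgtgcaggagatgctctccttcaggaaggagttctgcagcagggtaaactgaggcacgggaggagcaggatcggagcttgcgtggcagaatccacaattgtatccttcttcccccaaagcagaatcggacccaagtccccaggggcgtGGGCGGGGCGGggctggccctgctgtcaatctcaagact
Idi1: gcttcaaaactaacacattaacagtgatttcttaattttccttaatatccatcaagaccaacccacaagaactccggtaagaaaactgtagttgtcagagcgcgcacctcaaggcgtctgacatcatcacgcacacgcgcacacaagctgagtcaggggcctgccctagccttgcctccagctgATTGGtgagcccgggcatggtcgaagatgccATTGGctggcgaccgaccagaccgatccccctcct
Scd: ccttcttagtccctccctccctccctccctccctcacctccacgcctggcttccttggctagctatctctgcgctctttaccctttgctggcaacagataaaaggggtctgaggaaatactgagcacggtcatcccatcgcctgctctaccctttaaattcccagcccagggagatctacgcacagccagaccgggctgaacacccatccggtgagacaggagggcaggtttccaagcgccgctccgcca
Dhcr7 held 2 GC boxes that overlap, Idi1 held 2 NF-Y boxes, and no match lay in this window of Scd. Over 33469 promoters of this length, 30.5% held the GC box, 34.0% the NF-Y box, 14.1% the half-site and 0.974% the sterol core.

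Fatty acid genes changed at 1 desaturase. Of 14 synthesis genes measured, Scd was called higher, where 0.0909% of all genes were, and the list's median was 0.11. Scd, the stearoyl-CoA desaturase (probe on rn4 chr1:249459057-249459116), had -0.88, -1.27, -1.06 and -0.84 with TOTM, against -2.09, -2.27, -1.42 and -2.52 with MEHP and -0.92, -0.99, -0.88 and -0.70 in control. Every TOTM array lay above every MEHP array, by the least for MEHP 3, and Scd was 1.03 ± 0.20 higher with TOTM (interval 0.60 to 1.45, limma adjusted p = 0.0121). Without MEHP 3 and 4 the difference was 1.17, and without MEHP 1 and 2 it was 0.96 (limma adjusted p = 0.0729). The smallest Scd difference over the alternatives was 0.39. Acss2, which makes acetyl-CoA from acetate, and Fads2, the delta-6 desaturase, also separated without passing. Acss2 had 0.11, -0.25, -0.09 and -0.19 with TOTM, against -1.19, -1.19, -0.45 and -0.97 with MEHP (0.77 ± 0.20, limma adjusted p = 0.0670). Fads2 had -0.88, -1.25, -1.27 and -1.13 with TOTM, against -2.07, -2.02, -1.37 and -1.74 with MEHP (0.59 ± 0.15, limma adjusted p = 0.0737). Srebf1, the regulator of fatty acid genes, had 0.00, 1.94, 2.15 and 2.06 with TOTM, against 2.15, 2.21, 2.71 and 2.22 with MEHP, so TOTM 1 stood apart on this probe. On another Srebf1 probe it did not: levels were 0.40, 0.38, 0.61 and 0.49 with TOTM, against 0.63, 0.67, -0.79 and 0.28 with MEHP. The differences of the probes were of opposite sign, -0.83 ± 0.38 and 0.42 ± 0.30, and neither passed.

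Glutathione transferases, which conjugate electrophiles and some of which act in steroid tissues, had none of 18 measured called and a median of 0.23. Gsta2 had the largest difference among them. Its levels were 1.74, 1.06, 1.35 and 1.22 with TOTM, against -1.88, -2.10, 1.21 and -1.42 with MEHP and 1.59, 1.47, 2.10 and 1.28 in control. MEHP 3 lay within the TOTM range and the other MEHP arrays far below, and the difference of 2.08 ± 0.53 did not pass (limma adjusted p = 0.0631). Without MEHP 3 and 4 it was 3.34. Gstm1 and Gstm2 lay above MEHP on every TOTM array by smaller amounts, 0.51 ± 0.16 and 0.45 ± 0.18, and Gstt2 lay at -0.44 ± 0.18. Another Gstt2 probe lay at 0.20 ± 0.12 and did not pass. The alpha and mu classes include near-identical copies that probes may not tell apart.

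Retinoid handling had 1 gene called in each direction among 14 measured, and a median of 0.03. Over all genes 0.0909% were called higher and 1.48% lower. Rdh11, a retinal reductase, had -0.92, -0.92, -1.36 and -1.49 with TOTM, against -1.65, -1.88, -1.90 and -2.10 with MEHP and -0.96, -1.32, -1.01 and -1.0 in control. It was 0.75 ± 0.15 higher with TOTM (limma adjusted p = 0.0145). Aldh1a2, which makes retinoic acid, had -1.35, -0.61, -0.40 and -0.12 with TOTM, against 0.36, 0.78, 1.23 and 0.54 with MEHP and -0.98, 0.49, -0.23 and 0.34 in control. It was 1.40 ± 0.32 lower on the log2 scale with TOTM (a difference of -1.40, limma adjusted p = 0.0351), with the control arrays between and across both groups. Without MEHP 1 and 2 Rdh11 was called and Aldh1a2 was not, and without MEHP 3 and 4 neither was.

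Of the 22 genes called higher with TOTM, 14 have a symbol. The same contrast chose these 22, so their levels on single arrays are a description. In 21 of the 22 the single TOTM arrays all lay above the single MEHP arrays, as in 6.84% of all genes. In 18 of the 22 the control mean lay nearer to TOTM than to MEHP, against 53.5% of all genes. Hes6, a transcription factor of the hairy family, had 3.86, 3.60, 3.76 and 3.89 with TOTM, against 2.46, 2.51, 3.43 and 2.95 with MEHP and 4.02, 3.80, 4.09 and 3.55 in control (0.83 ± 0.20, limma adjusted p = 0.0466). Tas1r1, a taste receptor subunit, had -1.23, -1.58, -1.44 and -1.44 with TOTM, against -2.66, -2.69, -2.29 and -1.90 with MEHP (0.87 ± 0.18, limma adjusted p = 0.0186). Neither was called without MEHP 1 and 2, at 0.59 for Hes6 (limma adjusted p = 0.228) and 0.67 for Tas1r1 (limma adjusted p = 0.129). Without MEHP 3 and 4 the differences were 1.30 for Hes6 and 1.25 for Tas1r1. Mag, known as a myelin glycoprotein (0.84 ± 0.19), Ggt7, a gamma-glutamyltransferase family member (0.81 ± 0.17), Slc41a3, a member of a magnesium transporter family (0.69 ± 0.17), and Tuba3a, an alpha tubulin of the testis (0.59 ± 0.14), completed the rule's choice of higher genes. Their limma adjusted p ran from 0.0231 for Ggt7 to 0.0499 for Slc41a3. Without MEHP 1 and 2 none of these was called, with limma adjusted p from 0.13 for Ggt7 to 0.179 for Mag and Slc41a3. The differences were then 0.73 for Mag, 0.72 for Ggt7, 0.65 for Slc41a3 and 0.59 for Tuba3a. Without MEHP 3 and 4 they were 1.06, 0.98, 0.77 and 0.58. Tuba3a had 4.93, 5.0, 5.20 and 5.05 with TOTM, against 4.43, 4.50, 4.38 and 4.53 with MEHP and 4.64, 4.67, 4.77 and 4.35 in control, where the 4 MEHP arrays differ little.

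The 358 genes called lower with TOTM were alike on the 4 MEHP arrays, as their choice by the same contrast favours. In 357 of them every TOTM array lay below every MEHP array, as it did for 9.72% of all genes. Since the same contrast chose them, their levels are a description: the median difference, TOTM mean minus a single array, was -0.79, -0.86, -0.98 and -0.79 for MEHP 1 to 4, and -0.32 to -0.16 for the control arrays. Of 357 with a control value, 238 had a control mean nearer to TOTM than to MEHP, with median levels of -0.43 for TOTM, 0.55 for MEHP and -0.28 for control. The other 119 had one nearer to MEHP, with medians of -0.19 for TOTM, 0.54 for MEHP and 0.37 for control. Most of the 358 are probes of transcripts without a current symbol: 102 have one, and 30.5% of all called genes do, against 50.3% of the genes tested. A symbol was present for 19.7% of those with control nearer to TOTM and for 45.4% of those with control nearer to MEHP. All 4 TOTM and 4 MEHP arrays were well above background for 320 of the 358.

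The lists of interstitial cells and of matrix held 3 of the lower genes. Nr2f2, a nuclear receptor of interstitial progenitor cells (probe on rn4 chr1:125280995-125281054), had 1.72, 1.14, 1.66 and 1.52 with TOTM, against 2.32, 2.42, 2.67 and 2.31 with MEHP and 2.44, 2.86, 2.64 and 2.50 in control. TOTM lay below all MEHP and all control arrays, and Nr2f2 differed by -0.94 ± 0.20 (interval -1.36 to -0.52, limma adjusted p = 0.0213). Mmp14, a membrane protease that cuts collagen, had 4.05, 3.72, 3.93 and 3.73 with TOTM, against 4.58, 4.73, 4.56 and 4.63 with MEHP and 4.64, 4.81, 4.67 and 4.45 in control (-0.75 ± 0.13, limma adjusted p = 0.00677). Col1a2, a chain of collagen I, had 6.40, 6.23, 6.54 and 6.62 with TOTM, against 7.54, 7.70, 7.88 and 7.40 with MEHP (-1.19 ± 0.23, limma adjusted p = 0.0161), and its spot was set aside as an outlier on all control arrays. Another Col1a2 probe lay at -0.26 ± 0.32 and did not pass. Fn1, fibronectin, had 0.65, 0.31, 0.86 and 1.10 with TOTM, against 1.69, 1.75, 1.38 and 1.25 with MEHP (-0.72 ± 0.31), and did not pass.

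The lists around these genes lay nearer to 0. Of 23 collagens and matrix proteases measured, Col1a2 and Mmp14 were called lower, where 1.48% of all genes were, and none higher, with a median of -0.20 and single MEHP arrays at -0.34 to -0.17. Of 12 peritubular and interstitial markers, Nr2f2 was called lower, against the same 1.48% of all genes, with a median of -0.23. On single arrays that list lay at -0.23 to -0.12 for MEHP and -0.49 to 0.06 for control. The TOTM arrays, each set against the mean of the other TOTM arrays, ran from -0.36 to 0.34. The summed level of the interstitial list was 211 to 312 with TOTM, against 302 to 363 with MEHP. Without MEHP 3 and 4 none of Nr2f2, Col1a2 and Mmp14 was called, at differences of -0.86, -1.17 and -0.79, and without MEHP 1 and 2 Mmp14 was (-0.73, limma adjusted p = 0.0363).

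Further matrix and regulatory genes among those called lower were picked after their values were seen. Fbn1, fibrillin, had 3.50, 3.28, 3.57 and 3.39 with TOTM, against 4.71, 4.79, 4.44 and 4.60 with MEHP and 3.85, 4.57, 4.70 and 4.64 in control (-1.16 ± 0.23). Vcan, the proteoglycan versican, had -2.64, -2.76, -2.42 and -1.85 with TOTM, against -1.14, -1.03, -1.50 and -1.71 with MEHP (-0.98 ± 0.23). Ccn4, a matricellular target of Wnt signalling, had -0.13, -0.21, -0.21 and 0.00 with TOTM, against 0.95, 1.07, 0.83 and 0.51 with MEHP (-0.92 ± 0.21). Reln, the secreted protein reelin, lay at -1.13 ± 0.22, Tcf4, a basic helix-loop-helix factor, at -0.94 ± 0.20, and Zfp36l2, which destabilises messenger RNA, at -0.67 ± 0.14. Notch3, a receptor of mural cells, lay at -0.57 ± 0.14 and Klhl24, a substrate adaptor of ubiquitin ligase, at -1.04 ± 0.14. Their limma adjusted p ran from 0.000413 for Klhl24 to 0.0432 for Notch3. Without MEHP 1 and 2 only Klhl24 of these kept its call, and the others had limma adjusted p of 0.0543 (Tcf4 and Notch3) to 0.195 (Vcan). Without MEHP 3 and 4 the differences ran from -0.39 for Notch3 to -1.35 for Reln. Other probes of Fbn1, Reln, Klhl24 and Zfp36l2 lay at -0.08, -0.19, -0.22 and -0.19 and did not pass. Klhl24 had -0.90, -1.29, -0.98 and -1.17 with TOTM, against 0.07, 0.10, -0.07 and -0.16 with MEHP. Its difference was -0.97 without MEHP 1 and 2 and -1.17 without MEHP 3 and 4.

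The largest lower differences with a symbol were mostly at dim probes. Ergic2, a protein of the early secretory route, was well above background on all MEHP arrays and on no TOTM array, so it was at least 1.70-fold lower with TOTM (limma adjusted p = 2.65e-05). In the same way Gtse1, a microtubule-binding protein of the cell cycle, was at least 2.28-fold lower with TOTM (limma adjusted p = 0.000382) and the olfactory receptor Or12e9 at least 1.57-fold lower (limma adjusted p = 0.00446). For these a bound sets the MEHP mean against the lowest signal that counted as well above background on each TOTM array, or the probe's own where higher. Dhx16, an RNA helicase of splicing (-2.22 ± 0.40), Hint3, a nucleotide hydrolase (-1.69 ± 0.31), and Tob1, an antiproliferative protein (-1.68 ± 0.29), were measured well above background on 1 of 4 TOTM arrays. Between TOTM and MEHP, only MEHP met the filter of signal well above background on all arrays of a group for these 6 genes. Their p-values therefore describe probes kept where MEHP was high and are not support. These 6 differences were smaller under another scaling. With normexp background correction and quantile normalization they were -0.72 for Ergic2, -0.56 for Gtse1, -0.40 for Or12e9, -0.57 for Dhx16, -0.57 for Hint3 and -0.50 for Tob1, the last of which no longer passed (limma adjusted p = 0.0575). The bounds above hold for the processed signal alone. The names Ergic2 and Gtse1 came through an older synonym of the probe.

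Brighter genes of this set were Ranbp2, Supt16h and a pair of ribosomal pseudogenes. Ranbp2, a nucleoporin, had -2.48, -2.36, -2.29 and -2.10 with TOTM, against -0.54, -0.38, -0.39 and -0.83 with MEHP and -2.17, -1.46, -2.00 and -1.42 in control (-1.75 ± 0.19, limma adjusted p = 7.72e-05). Supt16h, a histone chaperone subunit, had -1.49, -0.76, -0.88 and -0.72 with TOTM, against 0.68, 0.87, 1.02 and 0.79 with MEHP and -0.58, -0.21, -0.74 and -0.15 in control (-1.82 ± 0.19, limma adjusted p = 6e-05). Its other probes lay at -0.37 and -0.17 and did not pass. Rpl23a-ps6 differed by -1.91 ± 0.26 and Rpl29-ps23 by -1.89 ± 0.39, and pseudogene copies of these ribosomal genes may share signal with their parents. For Ranbp2 and Supt16h it was the MEHP arrays that stood apart, above both TOTM and control. Both genes were also called without MEHP 1 and 2. Without MEHP 3 and 4 their differences were -1.84 and -1.73.

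**Figure D5:**
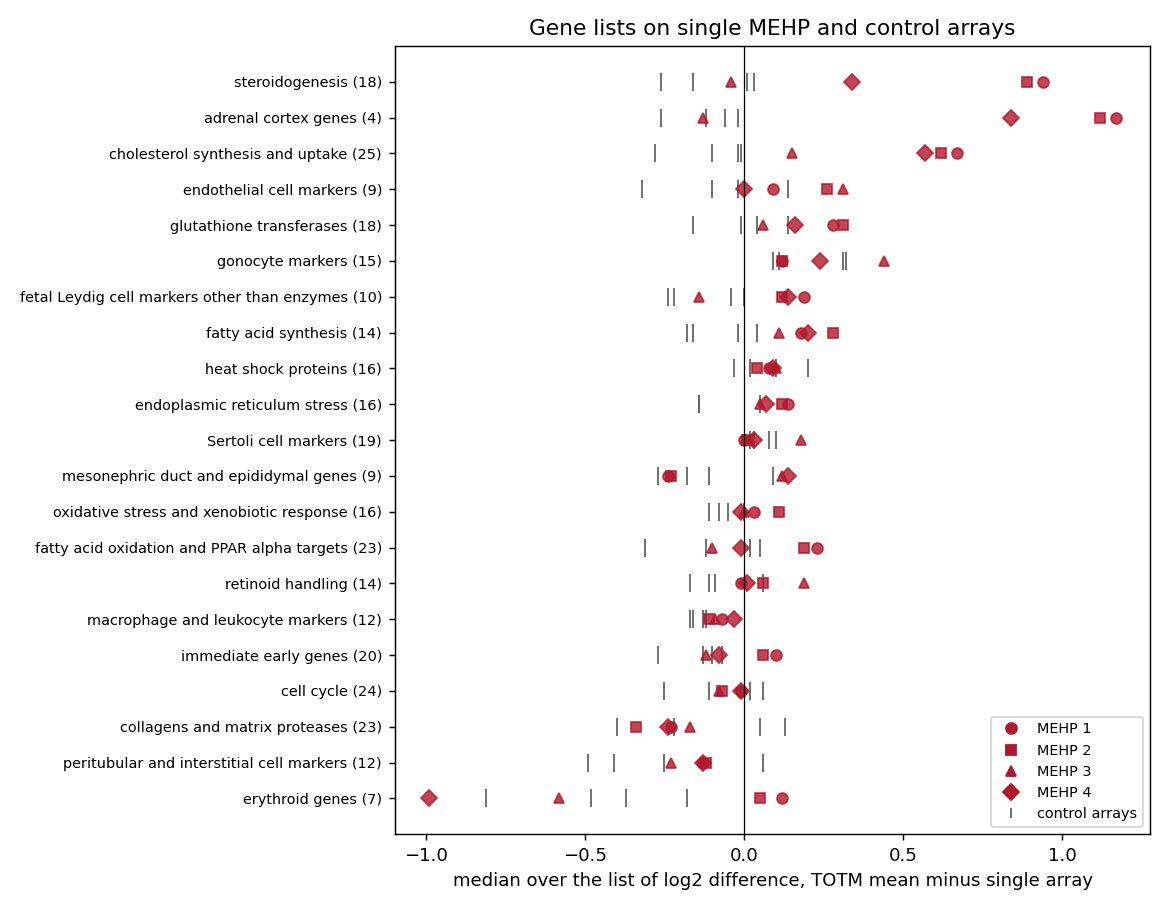
Median over each gene list (measured genes in brackets) of the log2 difference of the TOTM mean minus a single array, for the 4 MEHP arrays (red) and the 4 control arrays (grey). Steroidogenesis runs from -0.04 on MEHP 3 to 0.94 on MEHP 1, and cholesterol synthesis from 0.15 to 0.67, while most other lists lie near 0.

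Markers of the testis's other cells showed few calls. None of 19 Sertoli markers passed (median 0.07), and Amh, the hormone that defines foetal Sertoli cells, had 6.20, 5.84, 6.22 and 6.21 with TOTM, against 6.05, 6.15, 5.28 and 6.09 with MEHP (0.29 ± 0.19, interval -0.11 to 0.70). Cst12, a cystatin of Sertoli cells, lay at 0.59 ± 0.22. All 15 gonocyte markers lay at or above 0 (median 0.22) and none passed. Tdrd9 and Tdrd1, of the piRNA pathway, lay at 0.71 ± 0.35 and 0.64 ± 0.25 with every TOTM array above every MEHP array, and Tex101, found on the surface of germ cells, at 0.51 ± 0.21. None of 9 endothelial markers passed (median 0.36), with Kdr, the receptor of vascular growth factor, at -0.53 ± 0.22 and Plvap, of fenestrated endothelium, at 0.50 ± 0.19. None of 12 macrophage and leukocyte markers passed (median -0.01), with Aif1 at -0.66 ± 0.31 and C1qb, a complement chain, at -0.64 ± 0.26. Their summed level was 9.06 to 11.1 with TOTM, against 11.8 to 13 with MEHP.

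Blood RNA differed between the MEHP arrays. None of 7 erythroid genes passed (median -0.40). Their summed level was 234 to 330 on the TOTM arrays and 246, 272, 556 and 545 on MEHP 1 to 4, and the arrays with more erythroid signal were thus those whose steroid genes lay nearer to TOTM. Hbb-b1, a beta globin, had 7.60, 7.83, 8.18 and 8.06 with TOTM, against 7.80, 7.95, 9.0 and 8.91 with MEHP. The part of blood in the other results was not tested. Among 9 mesonephric duct and epididymal genes (median 0.07) Pax2, a factor of the duct, was called lower, where 1.48% of all genes were. Pax2 had -1.31, -1.05, -1.07 and -1.44 with TOTM, against -0.53, -0.55, -0.65 and -0.76 with MEHP and -1.01, -1.31, -1.10 and -1.06 in control (-0.57 ± 0.13, limma adjusted p = 0.0356). Without MEHP 1 and 2 it lay at -0.51 and did not pass (limma adjusted p = 0.162), and without MEHP 3 and 4 at -0.68. Emx2, a factor of the urogenital tract and gonad, lay at -0.76 ± 0.28 and did not pass, and the list's summed level was 11 to 12.8 with TOTM, against 12.8 to 16.2 with MEHP.

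Stress, growth and fatty acid oxidation genes did not pass in any of their lists across all arrays. The median was 0.03 over 23 genes of fatty acid oxidation and targets of PPAR alpha, the receptor through which MEHP acts in rodent liver. It was 0.26 without MEHP 3 and 4. Cpt1b, which admits fatty acids to mitochondria, lay at -0.59 ± 0.27 and Ppara at 0.48 ± 0.44. The median was 0.06 over 16 genes of oxidative stress and xenobiotic response, with Cyp1b1, a xenobiotic oxidase, at -0.63 ± 0.17 (limma adjusted p = 0.0857). It was -0.01 over 20 immediate early genes, with Cebpb at 0.63 ± 0.18 and Jun at -0.57 ± 0.16, each without overlap of the arrays. It was 0.10 over 16 heat shock proteins, with Hspa1a at 0.94 ± 0.28 and Hspa4 at -0.60 ± 0.21. Endoplasmic reticulum stress had a median of 0.09 over 16 genes, with Pdia4, a folding enzyme, at -0.71 ± 0.38. Cell cycle had -0.04 over 24, with Mcm5, a replication helicase subunit, at 0.65 ± 0.40 and an interval of -0.20 to 1.50.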

How the data were processed

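The values used were deposited 1-colour intensity readings, the processed signal of Agilent Feature Extraction. Its version was 9.5.3.1 per the file headers and 9.5 per the submitters' processing notes, and probe positions are on rn4. Background subtraction and detrending within each array had been done by the authors' software. The design holds 45018 spots, with 1639 control spots and 41012 probes.

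Spots marked as outliers were set aside, repeated spots averaged as log2 values of the deposited signal, and each array's 75th percentile subtracted. A probe stayed if any of the 5 groups had it well above background on all its arrays (28133 probes), and each gene was read by its brightest probe. Symbols of 19379 probes came from the RefSeq list of the GRCr8 assembly. limma 3.58.1 in R 4.3.3 (files read with data.table, version 1.17.8) fitted 1 mean per group over 19 samples with 14 residual and 2.6 prior degrees of freedom, and Benjamini-Hochberg adjustment covered all genes tested. The number of arrays limits the precision, and p-values measure the spread between litter pools.

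The comparison, the 21 gene lists (377 members), the named genes and the alternatives were chosen with earlier results of these data known. Named genes were a fixed set of testis genes, up to 10 genes each way with the largest fold among called genes with a symbol and no overlap of single arrays, and up to 4 members per list with the largest fold, from which the text gives a choice. A few called genes are said to be picked after their values were seen. Alternatives changed the background correction, scaling, filter, probes, outlier spots, variance, weights, block and the arrays in the fit.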

Additional observations from a re-analysis of the deposited data

Results flagged for a closer look

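In 79 genes named above, the 4 TOTM arrays were searched for an array far from the other 3, and 5 genes had one, where chance gives about 1 group in 20. TOTM 2 was low for Dhcr7, at 2.59, and for Amh, at 5.84. TOTM 1 was low for Or12e9, at -4.77, for Srebf1, at 0.00, and for Cpt1b, at 1.56. On other probes of Srebf1 and Cpt1b, TOTM 1 was not the lowest TOTM array. The MEHP group, with n = 3, was not searched.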

How the results depend on the processing

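The count of called genes was 380 (22 higher with TOTM, 358 lower). It was 620 with background correction and quantile normalization (136 higher), and 92 genes were higher with quantile normalization alone. It was 41 with median scaling (1 higher, 40 lower), which moved the median of all genes to -0.04, and 593 without the EHO arrays (101 higher). It was 699 with MEHP 1 and 2 as separate samples (99 higher, 600 lower) and 6283 with weighted arrays (3605 higher, 2678 lower), where weights ran from 0.0636 for EHO 1 to 9.11 for MEHP 4. It was 120 without MEHP 3 and 4 (46 higher, 74 lower) and 228 without MEHP 1 and 2 (3 higher, 225 lower). Of the 380, 126 were at least 2-fold. Differences of other named genes than the dim ones also shrank in some alternatives, to 0.39 for Scd, 0.31 for Rdh11 and 0.32 for Tas1r1. Mag fell to 0.41 and Vcan to -0.50. Some moved less, such as Dhcr7 (0.68 to 1.06) and Nr2f2 (-1.04 to -0.79). Leaving out 1 array at a time gave 195 to 408 genes, 3 to 27 higher and 168 to 384 lower. The lowest total was without MEHP 3, and 225 and 231 were called without TOTM 3 and TOTM 2.

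With the replicate number as a block 339 genes were called, 10 of them higher. Deviations of same-numbered TOTM and MEHP samples correlated at 0.11, -0.05 and 0.08 for replicates 1, 3 and 4. No pairing by number was seen, but so few values cannot exclude it. Slide as a block could not be fitted. Signs turned for Hsd17b3 under median scaling (-0.04) and without TOTM replicate 3, where it was 0.00 and just below 0 (0.00 to 0.12 over the arrays left out in turn), for Hbb-b1 without MEHP 3 and 4 (0.04), and without MEHP 1 and 2 for Hsd3b1 (-0.04), Scarb1 (-0.16) and Insl3 (-0.23). None of these genes was called across all arrays, and without MEHP 3 and 4 Hsd3b1, Scarb1 and Insl3 lay at 1.96, 2.26 and 2.05. The cause was not tested. The limits are the 3 MEHP samples, the unequal MEHP arrays, 1 slide per group and 1 dose.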
